A study of Capra hircus with 36 samples.

Results

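The goat miRNAs described here are mature sequences that the authors predicted from their own reads and that had no match in miRBase, the public registry of miRNAs, either among goat miRNAs or among those of other mammals. They are called unmatched miRNAs below, and each is written as u-miR with the number and arm under which it was deposited, so that u-miR-210-3p is not the registered miR-210-3p. The members were chosen by their counts: an unmatched miRNA was taken when its largest raw count in any of the 36 libraries was at least 50. Of the 358 unmatched miRNAs in the table, 111 were selected on that value. The same minimum would keep 358 of 447 Known miRNAs, identical to a registered goat miRNA, and 160 of 586 Conserved miRNAs, identical to one of another mammal.

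The study asked which miRNAs differ between goats living at high and at low altitude. Small RNA was sequenced from spleen, lung, liver, kidney, heart and longissimus muscle of 3 Tibetan Goat females at 3000 m and 3 Chuandong White Goat females at 600 m, all adult and labelled as older than 3 years, without any treatment. Each goat gave all 6 tissues, and each tissue and altitude has 3 libraries, named here by population and goat number. Altitude and population cannot be told apart in this design, and in bulk tissue fewer cells of a type and less RNA per cell cannot be told apart either.

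A miRNA is cut from a hairpin precursor whose arms, 5p and 3p, can each give a mature strand of roughly the same length. One strand is usually kept by an Argonaute protein, which it guides to target mRNAs through its seed near the 5′ end, while the other strand is usually degraded. Hairpins predicted from reads alone are a mixed class, since a true but rarely transcribed miRNA and a fragment of another RNA can look alike at low counts. Of the 111 members, the sequence of 1 was given in the material used here. It is shown because PCR was also run on this miRNA in the study. The seed, bases 2 to 8, is in capitals:

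u-miR-77-3p: aAAAACCCagatgaactttttt

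This strand has 22 bases, of which 9 are A, 7 are T and 6 are G or C. Places in the genome and sequences of the other members are not analysed here.

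Library totals ran from 7108635 to 14407748 counts, at which 3 counts equal 0.422 to 0.208 RPM (a miRNA's count per 1000000 miRNA counts of its library). No 2 libraries held identical counts. Of 17 tissue markers that were listed, 15 were highest in the tissue they mark, such as the heart miRNA miR-208b-3p with 13400 RPM in heart and the liver miRNA miR-122-5p with 50600 RPM in liver. The exceptions were both on the kidney list: miR-194-5p was highest in liver and miR-10a-5p in lung. The tissue labels therefore go with their markers, except that kidney rests on miR-204-5p, with 805 RPM in kidney and 641 RPM in liver.

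Members were read in few libraries. The median of the 111 was 11 libraries (quartiles 4 and 24), against 18 libraries for the 160 Conserved and 36 for the 358 Known miRNAs above the same minimum. Reads were found in all 36 libraries for 7 members and in a single library for 5. By tissue, 47 members had reads in all 6 tissues and 11 in 1 tissue, and by animal, 61 had reads in all 6 goats and 5 in 1 goat. With at least 10 reads asked for, 38 members covered all 6 tissues and 49 all 6 goats. For 42 members more than 50% of all their counts came from 1 library. Reads were confined to the high-altitude goats in 3 members (u-miR-7-3p, u-miR-172-3p and u-miR-246-5p), or 2.7%, against 13.4% of all listed miRNAs. They were confined to the low-altitude goats in 11 members, or 9.91%, against 10.5% of all listed miRNAs, and these included both arms of u-miR-58, u-miR-101, u-miR-161 and u-miR-170. Above the same minimum count the shares were 6.25% and 2.5% for Conserved and 0% and 0.279% for Known miRNAs. These 14 members were read in 1 to 4 libraries each.

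**Figure D1:**
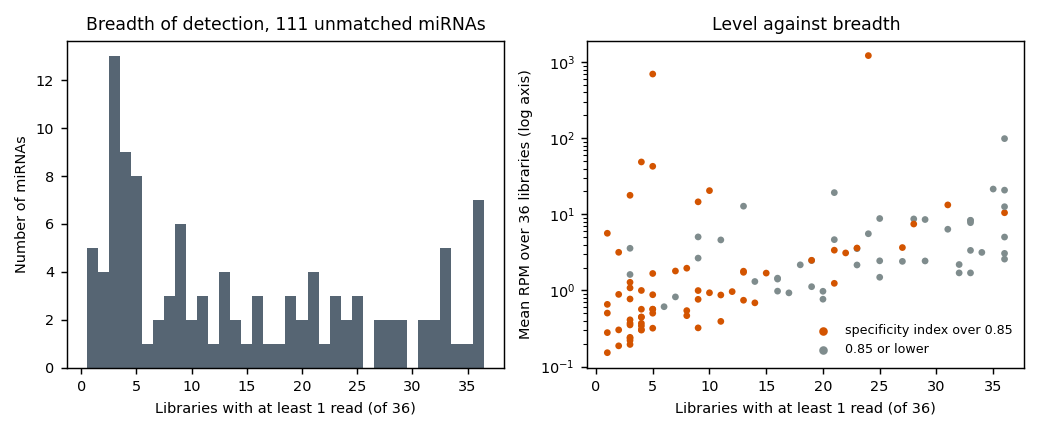
The left panel counts the 111 unmatched miRNAs by the number of libraries with at least 1 read, of 36, and the right panel sets that number against mean RPM on a log axis, with colour for a specificity index over 0.85. The tallest bars are those at 3, 4 and 5 libraries, 7 members were read in all 36, and several of the highest means belong to members read in 5 libraries or fewer.

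Within a group of 3 goats, many members were either well read or not read at all. In 212 combinations of a member with a tissue and altitude, at least 1 of the 3 libraries had 100 or more counts, and in 107 of them (50.5%) another library of the same 3 had 0. The share was 27.1% for Conserved and 6.19% for Known miRNAs. At least 1 such group was found for 59 of the 111 members. The members with the most were u-miR-91-3p with 7 groups, u-miR-116-3p with 6, and u-miR-183-5p and u-miR-232-3p with 4 each. At these depths a 0 in 1 library leaves room for at most 0.422 RPM from counting error alone, which is less than 100 counts give in any of these libraries.

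The members took 0.248% of the counts of a library on average, from 0.014% in kidney of high goat 1 to 1.86% in liver of high goat 1, and a few of them held nearly all of it. Of 871018 counts of members in all libraries, u-miR-116-3p had 46.6%, and with u-miR-136-5p and u-miR-247-5p the share was 80.6%. The 7 next by mean RPM were u-miR-161-3p, u-miR-158-3p, u-miR-201-3p, u-miR-163-5p, u-miR-79-5p, u-miR-201-5p and u-miR-101-5p. The median member averaged 1.69 RPM, against 2.65 RPM for Conserved and 45.7 RPM for Known miRNAs.

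The most abundant member, u-miR-116-3p, was read in 24 libraries with at least 750 counts in each and was at 0 in the other 12. In liver it had 141403, 24925 and 27885 counts in high goats 1, 2 and 3 and 29205, 0 and 13531 in low goats 1, 2 and 3. All 6 lung libraries read it, from 3018 to 13681 counts. In heart it had 14435, 0 and 9357 counts at high altitude and 0 in all 3 low-altitude libraries, and in spleen 0, 15745 and 17547 at high altitude and 0 in all 3 at low altitude. It was thus never found at a low level: each library had either 750 counts or more, or none. The liver library of high goat 1 set its liver mean of 4780 ± 6580 RPM (SD, n = 6); without that library the mean was 2140 ± 1370 RPM (n = 5). Only 1 arm of this precursor was listed.

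Other abundant members owed their rank to a few libraries. The counts of u-miR-101-5p were 1064 in heart and 199 in kidney of low goat 1 and 6575 in muscle of low goat 3, with 0 in the other 33 libraries. Of the counts of u-miR-79-5p nearly all lay in 3 livers, with 1472 and 3883 in high goats 1 and 2 and 991 in low goat 1, while the other 3 livers had 0, 1 and 0. Its opposite arm, u-miR-79-3p, was read in all 36 libraries, including 1232 counts in the liver of low goat 2, where the 5p arm had 1. For u-miR-201 both arms peaked in low goat 3: the 5p arm had 2271 counts in liver and 2950 in spleen, and the 3p arm 1587 and 2828.

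In u-miR-136-5p the pattern was sharper still, and it was the mirror image of a Conserved miRNA. This member had 6324 counts in kidney of high goat 2, 173373 in lung of high goat 2, 31965 in spleen of high goat 2 and 47522 in spleen of high goat 3. In the other 32 libraries it had 0, apart from 3 counts in lung of low goat 3. Conserved miR-486-5p, a miRNA known from red blood cells and from heart and skeletal muscle, had 0 counts in exactly those 4 libraries. In each of the other 32 it had at least 16 counts, up to 633027, and at least 50 in 31 of them. The library with 16 was liver of high goat 1, where the other 5 liver libraries had 39241 to 75212.

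In kidney and lung u-miR-136-5p stood between the levels of miR-486-5p in the other high goats, and in spleen it stood below that of high goat 1. In kidney the 656 RPM of u-miR-136-5p in high goat 2 lay between the 591 and 758 RPM of miR-486-5p in high goats 1 and 3. In lung the 16800 RPM of u-miR-136-5p in high goat 2 lay between the 18800 and 5050 RPM of miR-486-5p in high goats 1 and 3. In spleen u-miR-136-5p had 3390 and 4320 RPM in high goats 2 and 3, and miR-486-5p had 12000 RPM in high goat 1 and 3620, 3140 and 5770 RPM in the low goats. Whether reads of 1 molecule were listed under both names was not tested, since the sequence of neither is in the material used here.

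**Figure D2:**
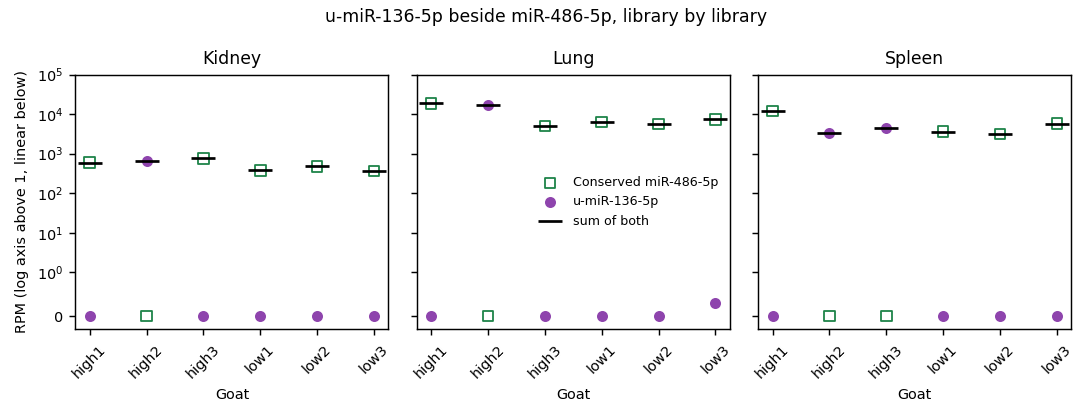
Points give the RPM of u-miR-136-5p (filled circles) and Conserved miR-486-5p (open squares) in each kidney, lung and spleen library, with goats along the horizontal axis, and short black lines give the sum of both; the vertical axis is logarithmic above 1 and linear below. In the 4 libraries where u-miR-136-5p lies between 656 and 16800 RPM miR-486-5p lies at 0, and the sum stays between 363 and 758 RPM in kidney.

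Alone, u-miR-136-5p was at least 2090-fold higher at high altitude in kidney and at least 26900-fold higher in spleen, against a floor of 3 counts over the low-altitude group. Where all libraries of a group are at 0, here and below, the fitted fold change depends on the prior count of the fit and is no bound. It had fitted log2 fold changes of high over low altitude of 13.54 in kidney (SE 5.4), 15.3 in lung (SE 5.46) and 17.43 in spleen (SE 4.77). None passed the test, with adjusted p-values from edgeR of 0.959, 0.832 and 0.729. DESeq2 called it in spleen (adjusted p = 1.22e-11) and with the tissues of each goat summed (0.000974), but not in kidney or lung. At low altitude u-miR-136-5p had at most 3 counts in any library, so it became a member through its high-altitude libraries alone. Its folds, bounds and calls thus rest on the counts that selected it. The kidney fold and its bound rested on high goat 2 alone, since high goats 1 and 3 had 0 counts there. The fitted lung value also rested on high goat 2, without which it was -2.99. With the counts of both names added, the log2 fold changes were 0.76 in kidney (SE 0.51), 1.12 in lung (SE 0.41) and 0.72 in spleen (SE 0.61), and the adjusted p-values were 0.958, 0.832 and 0.826. Since miR-486-5p was picked for being at 0 where u-miR-136-5p is read, the sum has no such 0 by construction. The summed level in kidney was 668 ± 83.9 RPM at high and 405 ± 62.2 RPM at low altitude (SD, n = 3 each), without overlap. In lung it was 13500 ± 7410 RPM and 6420 ± 916 RPM and in spleen 6560 ± 4720 RPM and 4180 ± 1400 RPM, and the populations overlapped in both. The sum was an alternative added after seeing the data.

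No other member had such a partner over several libraries. Among 68 members with at least 50 counts in 2 or more libraries, u-miR-136-5p was the only one for which another miRNA was at 0 in all those libraries and at 50 or more in at least 90% of the rest. Where 1 library was enough, 29 of the 111 members had such a partner. The share for Conserved and Known miRNAs was not computed, and the same partner could serve several members. An example is u-miR-7-3p, with 2510 counts in heart of high goat 1 and 0 in the other 35 libraries. Known let-7e-5p, a member of the let-7 family found across animal tissues, had 0 counts in that heart library and in 2 others. Through liver of high goat 1 it was likewise the partner of u-miR-99-3p, u-miR-124-5p, u-miR-147-5p and u-miR-212-3p. A weaker case was u-miR-158-3p, with 4682, 4047 and 5809 counts in spleen of high goat 3 and low goats 2 and 3. Known miR-708-5p had 0 counts in the spleens of low goats 2 and 3 but 406 in that of high goat 3.

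Some members had exactly the count of another miRNA in the same library. In muscle of low goat 3, u-miR-101-5p and Conserved miR-2379-5p both had 6575 counts, and their 3p arms both had 146. In lung of low goat 2, 698 counts were listed for each of u-miR-197-3p, u-miR-201-3p, u-miR-210-3p and 2 Conserved miRNAs. In kidney of low goat 2, u-miR-67-3p and u-miR-170-3p both had 318 counts. Among values of at least 100, 27.4% of those of members were shared with another miRNA of the library (93 of 340), against 13.7% for Conserved and 10.7% for Known miRNAs. Such values can meet by coincidence where many miRNAs have similar counts, and how many did was not tested.

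The tissues differed for a part of the members. In edgeR's quasi-likelihood F test over the 36 libraries, with goat as a block, 38 of 111 members differed among tissues at an adjusted p under 0.05, which is 34.2% of them, the same as the 34.2% of all listed miRNAs, which include those below the minimum count. Above the same minimum count 48.1% of Conserved and 77.7% of Known miRNAs differed among tissues. Without the goat block 66 members passed (59.5%), against 44.5% of all listed miRNAs. With DESeq2 27 passed (24.3%), against 46.7% of all miRNAs with an adjusted p. When each tissue was set against the mean of the other 5, with a log2 fold change of at least 1.5 asked for, 50 members were higher in at least 1 tissue, against 33.5% of all miRNAs. DESeq2 gave 76 (68.5%), against 61.8%. The 50 called with edgeR are 45% of the members, against 48.8% of Conserved and 61.2% of Known miRNAs above the same minimum count. Of the 50, 34 were higher in 1 tissue, 13 in 2 and 3 in 3.

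By tissue, 20 members were higher in liver, against a background of 6.04% of all miRNAs, and 18 in spleen, against 7.98%. There were 9 in heart against 5.32%, 9 in muscle against 7.69%, 8 in lung against 6.69% and 5 in kidney against 8.48%. These backgrounds include miRNAs below the minimum count, while members were chosen by their largest count, so the shares are not like for like. Some members described below reached 50 counts in only 1 tissue, in which they were also called. They are u-miR-21-3p, u-miR-110-3p, u-miR-135-3p, u-miR-139-3p, u-miR-141-3p, u-miR-158-3p, u-miR-173-3p, u-miR-208-5p, u-miR-214-5p and u-miR-217-3p. Their calls rest on the counts that selected them. The same holds for u-miR-48-5p, u-miR-79-5p and u-miR-100-3p, which reached 50 counts only in tissues in which they were called. A call did not need reads in every animal: of the 69 combinations of member and tissue, 23 had reads in all 6 libraries of the tissue, 26 in 4 or 5, 16 in 2 or 3 and 4 in a single library. The specificity index, which is 0 for an even level and 1 for a single tissue, exceeded 0.85 in 65 members, or 58.6%, against 48.1% of Conserved and 20.1% of Known miRNAs. Its highest tissue was liver for 20 of these members, spleen for 16, muscle for 13, lung for 6, kidney for 6 and heart for 4.

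In heart, u-miR-48-5p was read in every library. Its heart libraries held 176, 242 and 139 counts in the high goats, with 160, 159 and 143 in the low goats, and it was at 0 in all 12 liver and lung libraries. Kidney had 20 to 66 counts and muscle 27 to 40. The heart libraries did not overlap those of any other tissue, and heart was 6.07 log2 units above the mean of the others (SE 0.41, adjusted p = 6.68e-10 from edgeR). The same member passed with edgeR in kidney (difference 3.38, SE 0.4, adjusted p = 3.16e-06) and in muscle (difference 3.61, SE 0.41, adjusted p = 9.5e-07). The 3p arm of u-miR-247, u-miR-247-3p, was also higher in heart, with 92 to 213 counts and a difference of 2.33 (SE 0.3, adjusted p = 6.29e-07). Members without reads in all heart libraries passed as well: u-miR-183-5p had 640, 0 and 469 counts in the high goats and 528, 0 and 321 in the low goats, a difference of 3.27 (SE 1.01, adjusted p = 0.0262). Without high goat 1, high goat 3, low goat 1 or low goat 3 the adjusted p of u-miR-183-5p was 0.1, 0.151, 0.121 or 0.0556.

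Heart and muscle, the striated muscles of the set, shared u-miR-100-3p. It had 587, 571 and 413 counts in heart of the high goats and 0, 0 and 668 in heart of the low goats. In muscle it had 1087, 1078 and 0 counts in the high goats and 964, 697 and 651 in the low goats. All 24 libraries of the other tissues were at 0. Muscle stood 10.86 log2 units above the mean of the other tissues (SE 1.47, adjusted p = 0.000591 from edgeR), and heart stood 8.82 above (SE 1.56, adjusted p = 0.00424). The less abundant u-miR-173-3p was read in the same 2 tissues only, with 78 counts at most. It passed in muscle with a difference of 7.4 (SE 0.86, adjusted p = 0.000407 from edgeR), where its adjusted p with DESeq2 was 0.0641. In heart it passed with a difference of 3.76 (SE 0.84, adjusted p = 0.0207 from edgeR).

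Spleen had u-miR-217-3p in all 6 libraries, with 26, 80 and 150 counts at high and 356, 17 and 61 at low altitude. Outside spleen it had 12 counts in 1 liver and 11 in 1 lung library, so 96.8% of its counts were from spleen. The difference was 8.97 log2 units (SE 0.69, adjusted p = 2.82e-07 from edgeR). The spleen counts tested are also those by which this member was selected. In the same direction, u-miR-135-3p had 22 to 59 counts in spleen and at most 19 elsewhere, a difference of 7.48 (SE 0.78, adjusted p = 7.65e-06). In u-miR-141-3p spleen had 64, 120 and 175 counts at high altitude with 77, 12 and 46 in the low goats, against at most 32 elsewhere (difference 7.21, SE 0.85, adjusted p = 4.11e-06). Lung passed as well for u-miR-141-3p (difference 2.43, SE 0.77, adjusted p = 0.0391 from edgeR). The 3p arm of u-miR-187 was read in 33 libraries and was highest in spleen, with 145 to 428 counts (difference 2.73, SE 0.44, adjusted p = 2.82e-05), and u-miR-110-3p passed in spleen, liver and lung, while heart, kidney and muscle had 0 in all libraries. Of the 18 members called in spleen, 9 had reads in all 6 spleens. For u-miR-158-3p, 99.9% of the counts were from spleen, but 3 of 6 spleen libraries held nearly all of them, and the other 3 had 0, 15 and 0 counts in high goats 1 and 2 and low goat 1.

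In liver, u-miR-139-3p had 49 to 61 counts in the 6 libraries and at most 46 elsewhere (difference 6, SE 0.99, adjusted p = 7.86e-05 from edgeR). A further liver member, u-miR-88-3p, had 253, 653 and 413 counts in the high goats, with 2287, 2 and 0 in the low goats (difference 4.81, SE 0.83, adjusted p = 7.63e-05). Its low goats therefore spanned from none to the highest count. Reads in all 6 livers were also found for u-miR-214-5p, with 38, 26 and 36 counts in the high goats and 52, 19 and 62 in the low goats. Outside liver it had at most 9 counts (difference 6.81, SE 0.89, adjusted p = 6.63e-05 from edgeR). It was selected on these same liver counts, and it passed in spleen too (difference 3.1, SE 0.83, adjusted p = 0.0183 from edgeR). The most abundant call, u-miR-79-5p, rested on the 3 livers given above (difference 8.96, SE 1.32, adjusted p = 0.000118). Muscle passed as well for u-miR-79-5p (difference 4.97, SE 1.47, adjusted p = 0.0273 from edgeR). Of the 20 members called in liver, 4 had reads in all 6 livers, 10 in 4 or 5 and 6 in 2 or 3; u-miR-48-3p was among the last. For u-miR-116-3p, the highest liver member, the difference of 3.11 did not pass (adjusted p = 0.324), and its specificity index of 0.893 became 0.761 without the liver library of high goat 1.

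Kidney had u-miR-21-3p, with 23, 45 and 24 counts at high and 31, 51 and 45 at low altitude. Liver read it in 4 of 6 libraries with 15 to 34 counts, and heart and spleen not at all. In the other tissues 1 lung library had 13 counts and 1 muscle library 9. The kidney difference was 6.43 (SE 0.91, adjusted p = 2.74e-05 from edgeR), and liver passed as well (difference 3.58, SE 0.89, adjusted p = 0.00812). In lung no member combined a specificity index over 0.85 with at least 10 counts in 4 libraries, and of the 8 members called there u-miR-208-5p, with 93 and 50 counts in high goats 1 and 3 and 3 in low goat 2, was read nowhere else. The members u-miR-110-3p, u-miR-135-3p, u-miR-139-3p, u-miR-141-3p, u-miR-187-3p, u-miR-208-5p, u-miR-214-5p and u-miR-247-3p were named after their values were seen.

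**Figure D3:**
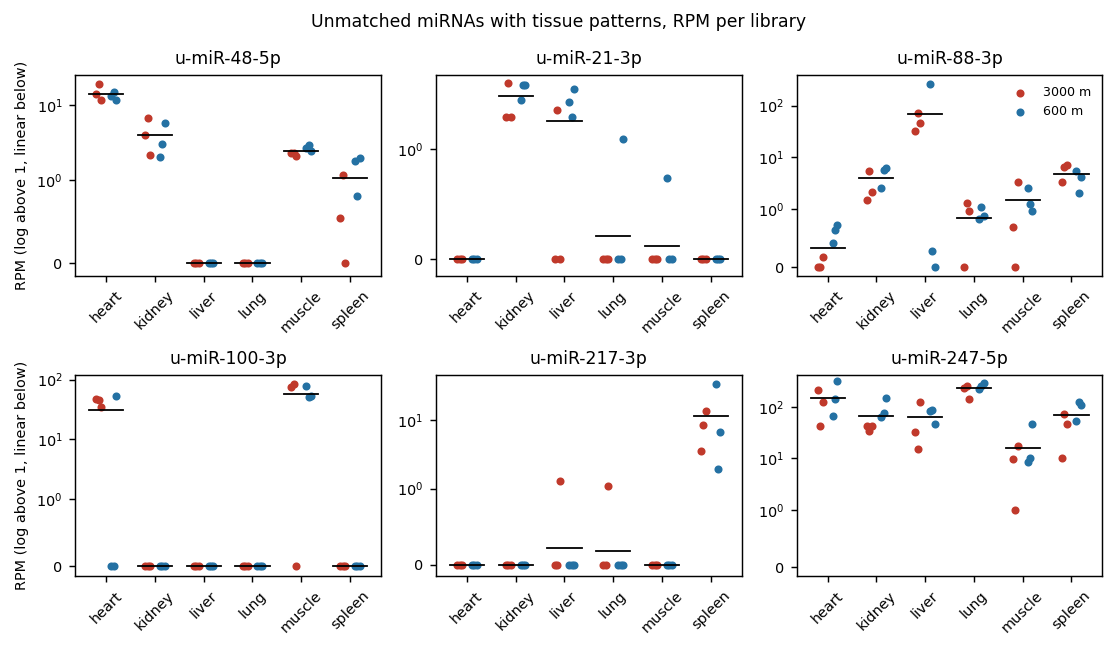
Each point is 1 library, with tissues along the horizontal axis and RPM on a vertical axis that is logarithmic above 1 and linear below; red marks 3000 m, blue 600 m, and short black lines give the mean of the 6 libraries of a tissue. The 6 heart libraries of u-miR-48-5p lie above all others of that miRNA, u-miR-217-3p is at 0 outside spleen except in 2 libraries, and u-miR-247-5p has reads everywhere.

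A small set of members was read in every library. The most abundant, u-miR-247-5p, had at least 13 counts, a median of 649 and at most 3849. It averaged 98.9 ± 87.4 RPM (SD, n = 36), with 230 RPM in lung, 149 RPM in heart and 15.7 RPM in muscle. Lung and heart were each 1.63 log2 units above the mean of the other tissues (SE 0.37 for both; adjusted p = 0.00192 and 0.00198 from edgeR). The most even was u-miR-163-5p, with 42 to 476 counts, 20.8 ± 12.9 RPM (n = 36) and a specificity index of 0.312. It was followed by u-miR-248-5p, with 21 to 408 counts and an index of 0.403. The other members read in all 36 libraries were u-miR-79-3p, u-miR-247-3p, u-miR-191-3p and u-miR-163-3p, and u-miR-79-3p reached 1232 counts in liver from a median of 31.

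By its log2(RPM + 1) over the 36 libraries, u-miR-247-5p was most like Known miR-24-3p (Pearson r = 0.77) and miR-3432-5p (r = 0.75). The miRNAs most like u-miR-136-5p were its own 3p arm (r = 0.75) and Known miR-216b-5p (r = 0.72), and those most like u-miR-116-3p were u-miR-146-3p (r = 0.54) and Known miR-2284e-5p (r = 0.53). These values describe libraries that share tissues and goats and, for u-miR-136-5p, rest mainly on 4 libraries.

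Between altitudes, no member passed the test in any single tissue. The test was edgeR's quasi-likelihood test on 3 against 3 goats, with an adjusted p under 0.05 over all listed miRNAs and a log2 fold change of at least 1.5 in size. The background was as low: in spleen 0.144% of all miRNAs were called and in muscle 0.0719%, and the other tissues had 0%. At an unadjusted p under 0.05 there were 8 members in spleen (background 5.75%), 7 in lung (4.74%), 7 in liver (4.24%), 6 in kidney (4.6%), 4 in muscle (6.18%) and 4 in heart (6.4%). DESeq2, which gave no adjusted p for 44 to 70 of the 111 members of a tissue, called 5 of 60 members with one in spleen (8.33%, against 5.5% of all miRNAs with one), 4 of 54 in lung (7.41% against 3.74%), 2 of 60 in liver (3.33% against 4.96%), 2 of 59 in muscle (3.39% against 5.49%), 1 of 41 in heart (2.44% against 7.36%) and 0 of 67 in kidney (against 3.17%). The members' share was thus above that of all miRNAs in spleen and lung and below it in the other tissues. Members were chosen by their largest count and the background was not, so these shares are not like for like. EdgeR's exact test called 1 member in liver (background 0.575%), 2 in lung (0.144%) and 0 in spleen (0.216%), muscle (0.216%), heart (0.791%) and kidney (0.0719%).

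Markers of other cell types differed between the populations in some tissues. The summed level of miR-144-3p and miR-486-5p, known from red blood cells, was 315 to 6320 RPM in high-altitude and 8600 to 9900 RPM in low-altitude livers, without overlap, and overlapped in the other tissues. MiR-144-3p was at 0 in all lung libraries, and miR-486-5p was at 0 in the 4 libraries where u-miR-136-5p was read. In kidney the sum was 76.2 to 758 RPM in the high goats, with 363 to 499 RPM in the low goats. With u-miR-136-5p added, a sum chosen after seeing the data, it was 610 to 758 RPM in the high kidneys, without overlap with the low ones, and the populations still overlapped in spleen, lung, heart and muscle. The summed level of 5 epithelial miRNAs (miR-141-3p, miR-200a-3p, miR-200b-3p, miR-200c-3p and miR-375-3p) was 19.4 to 72.8 RPM in high-altitude and 4.51 to 14.3 RPM in low-altitude muscle, without overlap, and overlapped elsewhere; miR-375-3p was at 0 outside heart. Their part in the altitude values of members in liver, muscle and kidney was not tested.

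The member nearest to the threshold was u-miR-48-3p in liver. It had 180, 283 and 367 counts in the high goats and 0 in all 3 low goats, at least 255-fold higher against a floor of 3 counts over the low-altitude group. The populations did not overlap, and the adjusted p from edgeR was 0.0828. It passed with edgeR's exact test (adjusted p = 8.6e-07), with DESeq2 (1.35e-11) and with weakly expressed miRNAs removed (0.0331), but not with the replicate number as a block (0.84). Outside liver this arm had at most 9 counts, except for 262 in lung of low goat 2.

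In lung, u-miR-91-3p had 0 counts in all 3 high goats and 155, 322 and 76 in the low goats, at least 181-fold lower at high altitude. Its adjusted p was 0.679 with the quasi-likelihood test and 2.87e-05 with edgeR's exact test. Elsewhere the same member was both at 0 and well read within a population: 0, 1144 and 0 counts in liver at high altitude and 0 in all low-altitude livers, 404, 221 and 0 in muscle at high and 0, 0 and 256 at low altitude. The lung contrast is thus one of several on and off patterns of this miRNA. Also in lung, u-miR-210-5p had 0 counts in the high goats and 14, 25 and 36 in the low goats, at least 24.6-fold lower at high altitude (adjusted p = 0.778 from edgeR, 0.0358 with the exact test).

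In spleen, u-miR-181-5p had 73, 42 and 9 counts at high altitude and 0 in the 3 low goats, at least 42-fold higher (adjusted p = 0.63 from edgeR, 0.00194 with DESeq2). This member too was on and off elsewhere, with 109, 76 and 0 counts in heart at high and 60, 0 and 117 at low altitude. Its lung counts were 0 in the high goats and 0, 43 and 3 in the low goats. The 5p arm of u-miR-88 was separated with low above high in heart, kidney and spleen. In heart it had 0 counts in the high goats and 2, 4 and 1 in the low goats. In spleen u-miR-88-5p had 2, 6 and 3 counts at high and 34, 14 and 22 at low altitude (log2 fold change -2.64, SE 0.91, adjusted p = 0.729 from edgeR, 0.00412 with DESeq2). In kidney it had 2, 2 and 3 counts at high and 12, 30 and 6 at low altitude (log2 fold change -2.67, SE 1.04, adjusted p = 0.959). The steadily read u-miR-163-3p had 9, 16 and 14 counts in high-altitude and 33, 52 and 45 in low-altitude livers (log2 fold change -1.75, SE 0.73, adjusted p = 0.726; 0.00779 with DESeq2).

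Of the other members named by the lowest p of a tissue, none passed either. In heart u-miR-130-3p had 16, 16 and 3 counts at high altitude and 0 at low altitude (adjusted p = 0.502 from edgeR), and u-miR-88-3p had 0, 0 and 2 against 5, 7 and 9 (adjusted p = 0.748). In kidney u-miR-74-5p had 0 counts in the high goats and 1, 22 and 18 in the low goats (adjusted p = 0.873). In muscle u-miR-239-5p had 120, 113 and 79 counts in the high goats, with 0, 37 and 0 in the low goats (adjusted p = 0.799). Separation was also seen in a member with reads in every library, u-miR-248-5p, named after its values were seen: in lung it had 64, 126 and 58 counts in the high goats and 301, 225 and 332 in the low goats (log2 fold change -1.68, SE 0.45, adjusted p = 0.832 from edgeR, 0.000597 with DESeq2).

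**Figure D4:**
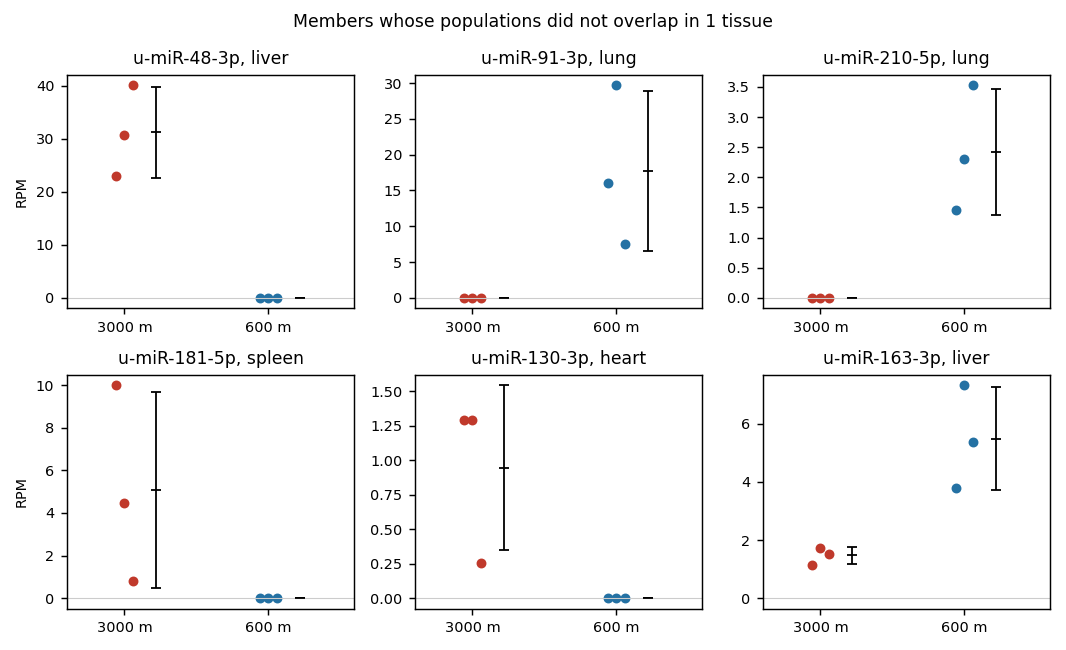
Points give the RPM of 6 members in the 3 libraries of each altitude in the named tissue, and the black marks give the mean with its SD (n = 3). In each panel the 2 populations lie apart, and in 5 of the 6 panels 1 population is at 0 throughout.

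When the 6 tissues of each goat were summed, 1 member passed, against 0.216% of all miRNAs. This was u-miR-161-3p, with 0 counts in all 18 high-altitude libraries and 12357, 6020 and 2485 counts in low goats 1, 2 and 3 (adjusted p = 0.0424 from edgeR). It became a member through its low-altitude libraries alone, so the call rests on the counts that selected it. The counts lay in 4 libraries: muscle of low goat 1 (12357) and low goat 3 (2485), and heart (2912) and kidney (3108) of low goat 2. The other 14 low-altitude libraries had 0, so each low goat carried it in 1 or 2 tissues. The level was at least 7110-fold lower at high altitude, against a floor of 3 counts over the group. The call did not hold with other size factors (adjusted p = 0.0523), with weakly expressed miRNAs removed (0.0557), with miRNAs of identical counts kept once (0.0601), with limma on mean log2(CPM + 1) (0.102) or with the replicate number as a block (0.243); it held with library size only (0.0179) and DESeq2 (7.42e-22). It was lost without low goat 1 (0.086) or low goat 2 (0.0886), and without high goat 1, 2 or 3 (0.0646, 0.0906 and 0.0707). Without low goat 3 it held (0.0322).

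At an unadjusted p under 0.05 the sums per goat gave 21 of 111 members (18.9%), against 10.6% of all miRNAs. DESeq2 called 12 of the 87 members to which it gave an adjusted p (13.8%), against 6.2% of all miRNAs with one. Among these 12 were members with reads in every goat. The sums of u-miR-130-3p were 80, 64 and 93 counts in the high and 18, 10 and 13 in the low goats (log2 fold change 2.51, SE 0.67, adjusted p = 0.313 from edgeR, 0.00255 with DESeq2). Those of u-miR-19-3p were 28, 70 and 27 in the high and 161, 143 and 178 in the low goats (log2 fold change -2.06, SE 0.54, adjusted p = 0.313; 0.00311 with DESeq2). Those of u-miR-77-5p were 167, 812 and 179 in the high and 5, 24 and 60 in the low goats (log2 fold change 3.61, SE 0.98, adjusted p = 0.324; 0.00168 with DESeq2). In each of these 3 the populations did not overlap. Each reached 50 counts only in the population where it was higher. The same holds, among the 12, for u-miR-101-5p, u-miR-101-3p, u-miR-127-3p, u-miR-136-5p, u-miR-161-3p and u-miR-170-3p. Members were chosen by their largest count and the background was not, so the shares above are not like for like. The members u-miR-19-3p, u-miR-77-5p and u-miR-127-3p were named after their values were seen.

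Of the members, 7 stand on a list of altitude-related miRNAs drawn up in the study from these same samples, so that it is no independent evidence of their direction. None of the 13 combinations of member and tissue passed here, with adjusted p-values from edgeR between 0.615 and 0.959. For u-miR-77-3p, spleen had 0, 930 and 55 counts at high and 0, 12 and 2 at low altitude, and kidney had 19, 23 and 0 at high and 461, 7 and 350 at low altitude. The populations overlapped in both tissues, and the signs were opposite, with log2 fold changes of 5.68 (SE 2.64) in spleen and -4.7 (SE 1.98) in kidney. In liver u-miR-201-5p had 17, 0 and 0 counts at high and 2, 14 and 2271 at low altitude, so that 1 goat held nearly all of them, and in lung it had 0 in the high goats and 0, 25 and 69 in the low goats. In heart and spleen u-miR-116-3p, given above, was at least 7670-fold and at least 11300-fold higher at high altitude against a floor of 3 counts over the group, with adjusted p-values from edgeR of 0.615 and 0.729. Both became calls when the 1 high-altitude library at 0 was left out: without high goat 2 the adjusted p in heart was 0.0167, and without high goat 1 that in spleen was 0.0117, where u-miR-136-5p passed as well (0.0117). Leaving out the library at 0 selects on the counts tested, so these calls decide nothing. With all libraries DESeq2 called u-miR-116-3p in heart (adjusted p = 7.44e-11), in spleen (1.22e-11) and over the sums per goat (0.0324). Single libraries carried u-miR-91-3p in liver (1144 counts in high goat 2), u-miR-210-3p in heart (70 counts in high goat 3) and u-miR-232-3p in heart, with 277 counts in low goat 1 and 14 in high goat 1.

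The altitude difference did not depend on the tissue at an adjusted p under 0.05 for any member, against 0.144% of all miRNAs (edgeR, 5 degrees of freedom). At an unadjusted p under 0.05 there were 4 members, against 6.61% of all miRNAs. DESeq2 called 1 of the 70 members with an adjusted p (1.43%), against 10.1% of all miRNAs with one. The lowest were u-miR-48-3p (adjusted p = 0.144), u-miR-181-5p (adjusted p = 0.672) and u-miR-116-3p (adjusted p = 0.715).

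The arms of 1 precursor can be compared within a library. The 111 members came from 88 precursors, of which 65 had both arms listed and 23 had both arms among the members. The share of the 5p arm was taken in libraries with at least 20 reads over both arms. The same arm was the larger in every such library for 37 of the 65 precursors. Over precursors with at least 4 such libraries the figure was 24 of 47 (51.1%), against 73.4% of 64 Conserved and 80.3% of 198 Known precursors. Summed over libraries, 32 precursors had more 5p and 33 more 3p reads, and in 28 the larger arm had over 90% of them.

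Some precursors read in every tissue had the same arm in the lead in all or nearly all libraries. The 5p share of u-miR-163 was 60% to 98.2% over 36 libraries (median 88.4%). That of u-miR-247 had a median of 94.2% and was under 50% in 1 library, muscle of high goat 2, with 17.8%; there the 5p arm had 13 counts and the 3p arm 60. Precursors read in few libraries could also keep the same arm in the lead. The 5p share of u-miR-158 was 2.8% to 3.11% in its 3 spleen libraries. That of u-miR-161 varied more, from 0.0322% to 3.41% in 4 libraries. Both give mainly the 3p strand. The 3p arm also led in all 29 libraries of u-miR-191 and all 18 of u-miR-88, and the 5p arm in all 36 of u-miR-248, whose 3p arm was not a member.

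In u-miR-187, the precursor with the most libraries in which the less used arm led, the share moved with tissue. The 5p arm was the larger in all 6 heart libraries, from 50.5% to 73.7%, and the smaller in all 6 spleen libraries, from 24.5% to 48.9%. Kidney, liver, lung and muscle had libraries on both sides, and over all 32 libraries 20 had more 5p and 12 more 3p. That tissue contrast was noticed in the data and has no test.

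Other precursors had either arm in the lead from library to library. The 5p share of u-miR-253 ran from 0% to 100% over 28 libraries: in spleen of high goats 1, 2 and 3 its 5p arm had 28, 20 and 0 counts and its 3p arm 0, 0 and 251. For u-miR-201, whose 5p share ran from 0% to 93.8%, 7 of 27 libraries had more 5p reads. In u-miR-48 the change went with tissue: 19 libraries, all from heart, kidney, muscle or spleen, had more 5p, and the 4 with more 3p were the livers of the 3 high goats and the lung of low goat 2, where the 5p arm was at 0. The altitude contrast of u-miR-48-3p in liver was therefore seen in an organ where no library read the 5p arm.

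**Figure D5:**
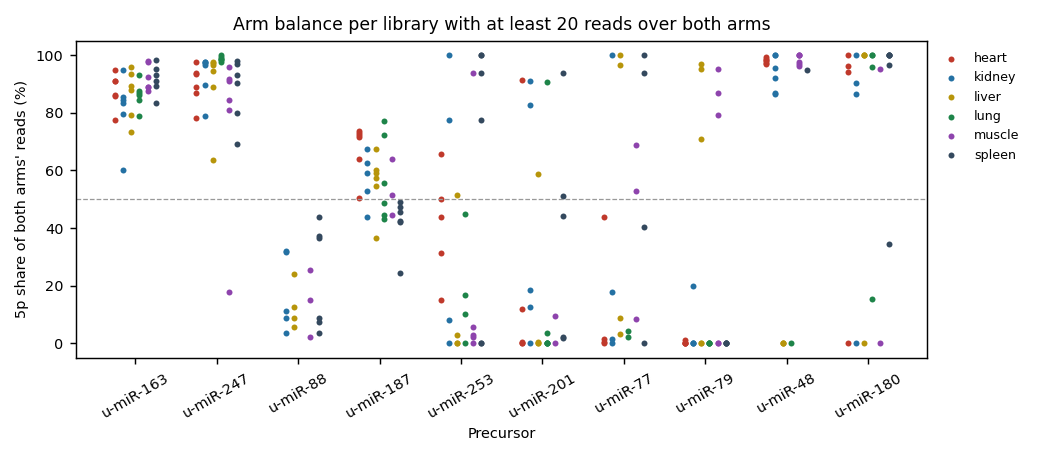
Each point is the 5p share of the reads of both arms in 1 library with at least 20 such reads, for 10 precursors along the horizontal axis, coloured by tissue; the dashed line marks 50%. Points of u-miR-163 stay above the line, those of u-miR-187 lie above it in heart and below it in spleen, and those of u-miR-48 and u-miR-180 are at most 15.3% or at least 86.4%, except for 1 library of u-miR-180 at 34.4%.

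At the limit of the selection, the members with the smallest largest counts were u-miR-179-3p (50 counts), u-miR-21-3p and u-miR-96-3p (51 each) and u-miR-177-5p (53). Just outside were u-miR-183-3p (48 counts), u-miR-248-3p (47), u-miR-25-5p (46) and u-miR-89-3p (45). The limit does not follow breadth: u-miR-248-3p was read in all 36 libraries and stayed outside, while u-miR-96-3p, with 3 libraries, was inside.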

How the data were processed

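The deposited table gives raw counts, made by the authors: reads (HiSeq2500, CASAVA 1.8) were mapped to the ARS1 goat genome with Bowtie without mismatches, miRNAs were found with miRDeep2 and matched to miRBase 21, and those with at least 3 reads in 1 library were kept. Conserved and Known rows share this table. The counts were used as deposited, over all listed miRNAs, with totals of 7108635 to 14407748. RPM were computed from them.

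Tests were quasi-likelihood fits in edgeR 4.0.16 (R 4.3.3) with TMM factors and Benjamini-Hochberg adjustment: altitude within each tissue on 3 against 3 goats, altitude on counts summed per goat, and tissue and interaction over 36 libraries. Calls needed an adjusted p under 0.05 and, for directed comparisons, a log2 fold change of at least 1.5. The goat was a block in the tissue fits because the same animals gave all tissues; deviations of a goat's libraries correlated from -0.01 to 0.15. DESeq2 1.42.0, limma 3.58.1, edgeR's exact test, other size factors, filters, blocks and left-out goats were alternatives. Fits were tested on simulated counts, drawn with a single dispersion and with changes placed only in well-read miRNAs. Those simulations say little about members at low levels or with on and off counts.

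Members named with values were the 10 highest by mean RPM, the 2 highest of each tissue with an index over 0.85 and at least 10 counts in 4 libraries, the 2 with the lowest p for altitude in each tissue without overlap, calls, the 3 lowest interactions, 6 precursors by arm counts and arm changes, the study's listed members, the 3 with most groups holding 0 beside 100 counts, and those at the limit of selection. Members and lists were chosen with earlier results of these data known. Count intervals cover counting error only, since reads carried no molecular identifiers.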

Additional observations from a re-analysis of the deposited data

Results flagged for a closer look

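The altitude difference of u-miR-239-5p pointed one way in heart and muscle and the other way in liver. In heart it had 276, 208 and 135 counts in the high goats and 0, 42 and 38 in the low goats, a log2 fold change of 2.74. In muscle the high goats had 120, 113 and 79 counts and the low goats 0, 37 and 0 (log2 fold change 3.01). In liver it had 30, 0 and 0 counts in the high goats and 56, 37 and 49 in the low goats, a log2 fold change of -1.95. The populations did not overlap in any of these tissues. None of the 3 differences passed on its own, and the test of the difference among all 6 tissues (edgeR, 5 degrees of freedom) gave an adjusted p of 1; heart or muscle against liver alone was not tested.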

How the results depend on the processing

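For 33 results on single members, 408 values under alternatives were computed: 375 kept direction and side of the threshold, 16 passed only under the alternative, 15 were lost (u-miR-161-3p over goats, u-miR-183-5p in heart and u-miR-173-3p in muscle) and 2 reversed: u-miR-136-5p in lung ran from -2.99 (without high goat 2) to 18.38 and u-miR-232-3p in heart from -9.77 to 5.09 (without low goat 1) over the single goats left out (log2, high over low). Members called for altitude with DESeq2 were 1 in heart, 2 in liver, 4 in lung, 2 in muscle, 5 in spleen, 12 over goats and 1 in the interaction, above the share of all miRNAs called that way in lung (7.41% against 3.74%), in spleen (8.33% against 5.5%) and over goats (13.8% against 6.2%) and below it in the others. These shares are not like for like, since members were chosen by their largest count. The exact test gave 1 in liver and 2 in lung, and removal of weakly expressed miRNAs 1 in liver. Leaving out single goats gave 0 to 1 in heart, 0 to 2 in spleen and 0 to 1 over goats. The calls over goats were u-miR-136-5p without high goat 1 and u-miR-161-3p without low goat 3. Over goats, RLE size factors, the filter, identical miRNAs kept once, limma and the replicate number as a block each gave 0 in place of 1. That block, which joins different animals of equal number (correlations of 0.06 to 0.11), gave 0 in every tissue. Without the goat block (no replicate block) tissue calls were 66 in place of 38 (44.5% of all miRNAs in place of 34.2%). DESeq2 gave 27 tissue calls, and 76 members higher in a tissue in place of 50 (61.8% of all miRNAs in place of 33.5%). An index on log2(RPM + 1) put 40 members over 0.85 in place of 65. Asking for 50 counts in 2 libraries kept 68 members and in 2 goats 65. The cause of these differences was not tested. Depth limits members near 3 counts, or 0.208 to 0.422 RPM.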
